A study of Mus musculus with 6 samples.

Results

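The genes described here encode 9 C-type lectin pattern receptors of myeloid cells: Clec4e, Clec4d, Clec4n, Clec4a1, Clec4a2, Clec4a3, Clec7a, Clec12a and Clec5a. They were chosen by gene symbol, with earlier results of these data known, and all 9 were found among the 24394 symbols listed in the files. Bone marrow-derived macrophages (BMMs) of C57BL/6 mice of postnatal day 28 were differentiated over 7 days in macrophage colony-stimulating factor at 50 ng/ml. The 3 libraries of the cartilage group came from BMMs given 5 cartilage fragments per macrophage for 24 h, and the 3 control libraries from BMMs cultured without fragments. The fragments were crushed femoral head cartilage of wild type mice, and the marrow came from the same mice. Nothing in the labels says that replicates came from separate animals, so p-values measure only the spread between these libraries. The methods give male mice, but Xist, the RNA that coats an inactive X chromosome, was listed at 19.8 to 23.6 FPKM in all 6 libraries and 4 of 4 Y-linked genes were listed at 0.

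C-type lectin receptors bind carbohydrates, glycolipids and material from dead cells at the surface of myeloid cells. The activating ones signal through an immunoreceptor tyrosine-based activation motif, carried either in their own tail or by a partner chain such as the product of Fcer1g or Tyrobp, to the kinase Syk and the adaptor Card9 and on to NF-κB. Others carry an inhibitory motif that recruits phosphatases such as the product of Ptpn6. Levels are given as FPKM, fragments per kilobase of transcript and per 1000000 mapped fragments, summed over the transcripts of a gene, and as fragments estimated from the deposited coverage.

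The cells carried the RNA of macrophages. All 8 macrophage markers examined had a mean above 1 FPKM, and none of the 7 lymphocyte or 6 erythroid markers was listed above 0. Of 8 listed chondrocyte markers none reached a mean of 1 FPKM, and Matn3, Col9a1 and Hapln1 were listed at 0 in every library. Of 8 listed neutrophil markers 6 had a mean above 1 FPKM, and their summed level was 955 to 1051 FPKM in control and 852 to 1208 FPKM in cartilage libraries. The summed level of 6 fibroblast markers was 154 to 165 FPKM in control and 103 to 117 FPKM in cartilage libraries, a difference carried by Col1a1 and Col1a2, neither of which passed on FPKM. In bulk RNA, fewer cells of a type and less RNA per cell cannot be told apart.

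Of the 9 receptor genes, Clec4e alone passed an adjusted p of 0.05 on FPKM (limma, Benjamini-Hochberg over 10393 tested genes), a count to be read beside the 0.366% of all tested genes that did so in either direction. On estimated fragments Clec4e and Clec5a passed, beside 2.56% of all tested genes. In 6 of the 9 genes the FPKM of the groups did not overlap, 5 being higher and 1 lower with cartilage fragments, where 15.9% of all tested genes did not overlap, 9.04% being higher and 6.89% lower. When only transcripts that carry the gene's name in the files were summed, that count was 3, beside 14.8%. The median log2 change on FPKM was 0.31 over the 9 genes and 0.00365 over all tested genes.

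**Figure D1:**
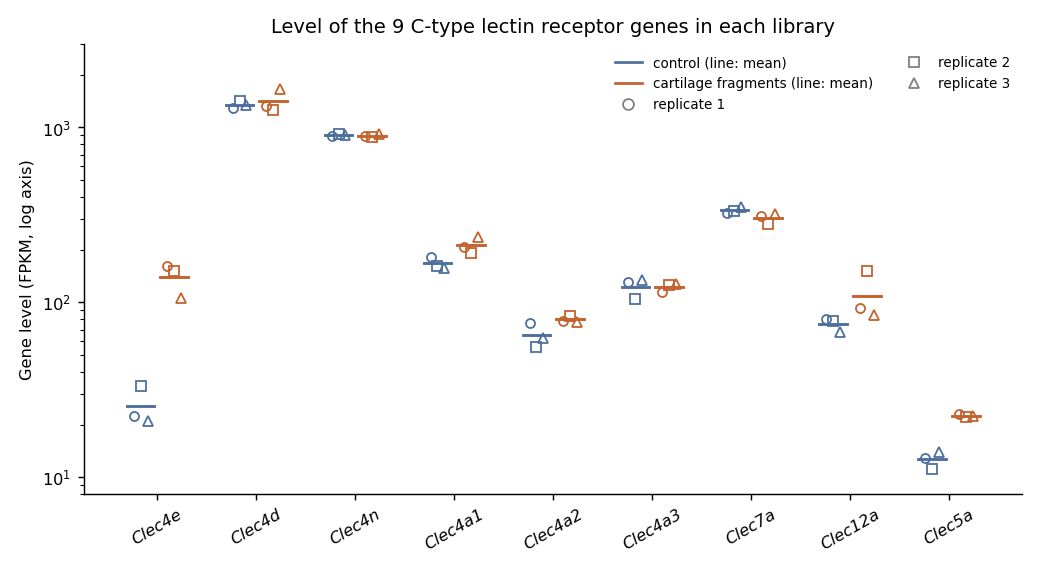
Level of each receptor gene in each library in FPKM on a log axis, with controls in blue, cartilage fragments in orange, a marker shape for each replicate number and a line at the group mean. Clec4e stood at 21.1 to 33.1 FPKM in control and 106 to 161 FPKM in cartilage libraries, while Clec4d and Clec4n stayed the highest genes in both groups.

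Clec4e, also called Mincle, binds mycobacterial cord factor and a nuclear protein set free by dying cells, and signals with the Fcer1g chain. Its level was 22.5, 33.1 and 21.1 FPKM in the 3 control libraries and 161, 152 and 106 FPKM in the 3 cartilage libraries. Every cartilage library was above every control, and cartilage replicate 3 was the lowest of the 3. The log2 change was 2.45 (SE 0.22, limma adjusted p = 0.00411), a fold change of 5.45 with a 95% interval of 3.83 to 7.77. The gene ranked 2795 by control level among the tested genes and 508 by cartilage level. Its rise rested on 133 estimated fragments in the controls together and 704 in the cartilage libraries, a ratio of 5.54 per mapped fragment with a 95% counting interval of 4.59 to 6.71 (Clopper-Pearson, counting error only). Per 1000000 fragments the controls held 52.0, 74.7 and 48.7 and the cartilage libraries 371, 351 and 244, and on that scale the log2 change was 2.44 (SE 0.18, limma adjusted p = 1.604e-06). Without cartilage replicate 1 the limma adjusted p on FPKM was 0.0508, with a log2 change of 2.33, and without any other library it lay between 0.00435 and 0.0424. The highest adjusted p over the 17 alternatives other than the replicate block was 0.0676.

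Clec4d, also called MCL or Dectin-3, is a partner receptor of Clec4e. It lies next to Clec4e on chromosome 6 of mm10, at 123262107 to 123275268 on the plus strand, and Clec4e at 123281789 to 123289871 on the minus strand, so that 6521 bp separate the 3′ ends of both genes. Clec4d was the highest of the 9 genes, at 1295, 1413 and 1341 FPKM in control and 1319, 1265 and 1652 FPKM in cartilage libraries. The groups overlapped, and cartilage replicate 3 alone was above all controls. The log2 change was 0.06 with a 95% interval of -0.17 to 0.28 (limma adjusted p = 0.889). The high value of cartilage replicate 3 held 719 FPKM of an unnamed transcript of 652 bp that Cufflinks had assembled at the locus in that library alone. On estimated fragments, in which a short transcript gains less, the order turned, with 1465, 1591 and 1507 per 1000000 in control and 1484, 1423 and 1371 in cartilage libraries and a log2 change of -0.09 (limma adjusted p = 0.443). The change in Clec4e was not matched at its neighbour on either scale. The log2 ratio of Clec4e to Clec4d was -5.75 ± 0.30 (SD, n = 3) in control and -3.35 ± 0.53 (SD, n = 3) in cartilage libraries, a shift of 2.39 in an exact permutation test with p = 0.1, the smallest that 3 against 3 allows.

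Clec4n, also called Dectin-2, binds fungal mannans with the Fcer1g chain and lies 15083 bp before Clec4d. Its level was 899, 916 and 901 FPKM in control and 897, 882 and 920 FPKM in cartilage libraries. The groups overlapped within a narrow range, and the log2 change was -0.01 with a 95% interval of -0.11 to 0.09 (limma adjusted p = 0.970). No unnamed transcript was listed at its locus. The log2 ratio of Clec4e to Clec4n rose from -5.17 ± 0.34 to -2.71 ± 0.36 (SD, n = 3 each).

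The sequences before the starts of Clec4e, Clec4d and Clec5a are shown because Clec4e and Clec5a were the members with the largest changes and Clec4d is the neighbour whose level did not follow. Each is the stretch of 250 bases upstream of the start in RefSeq on GRCm38.p6, read 5′ to 3′ on the strand of the gene. They lie at chr6:123289872-123290121 on the minus strand for Clec4e, chr6:123261857-123262106 on the plus strand for Clec4d and chr6:40585806-40586055 on the minus strand for Clec5a. Capitals mark the matches, on either strand and with overlaps kept. The letters searched were TTGCNNAA for factors of the C/EBP family. For PU.1, the factor encoded by Spi1, they were GAGGAA. The TATA box was searched as TATAAA. For AP-1 the letters were TGANTCA, and NF-κB was searched by its motif of 10 letters.
Clec4e: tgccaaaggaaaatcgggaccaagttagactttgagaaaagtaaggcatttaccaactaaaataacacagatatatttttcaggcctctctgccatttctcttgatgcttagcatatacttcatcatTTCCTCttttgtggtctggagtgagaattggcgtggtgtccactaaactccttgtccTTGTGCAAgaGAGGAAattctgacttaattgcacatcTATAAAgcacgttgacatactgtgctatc
Clec4d: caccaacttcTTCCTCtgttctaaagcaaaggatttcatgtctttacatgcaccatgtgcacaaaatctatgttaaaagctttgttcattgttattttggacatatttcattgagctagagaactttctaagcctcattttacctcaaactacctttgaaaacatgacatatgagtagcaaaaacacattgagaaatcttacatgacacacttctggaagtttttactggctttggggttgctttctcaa
Clec5a: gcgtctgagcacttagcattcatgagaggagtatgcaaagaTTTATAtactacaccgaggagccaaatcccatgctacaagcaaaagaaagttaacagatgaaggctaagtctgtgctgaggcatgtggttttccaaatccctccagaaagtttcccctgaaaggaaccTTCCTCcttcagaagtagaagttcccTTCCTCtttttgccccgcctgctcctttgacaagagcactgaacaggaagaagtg
The Clec4e stretch held a C/EBP match at -66 to -59, counted from the base before the start, PU.1 matches at -123 to -118 and -56 to -51, and a TATA match at -29 to -24. The Clec5a stretch held PU.1 matches at -81 to -76 and -55 to -50 and a TATA match on the opposite strand at -209 to -204. The Clec4d stretch held 1 PU.1 match, at -240 to -235. Of all 32851 stretches of this length in the table, 9.56% held the C/EBP letters, 23.3% the PU.1 letters, 12.4% the TATA letters, 6.75% the AP-1 letters and 7.25% the NF-κB motif. Of the 8 members found in the table, Clec12a was the other with a C/EBP match, at -140 to -133, and it held the AP-1 match of the set, at -213 to -207. The NF-κB motif was in none of the 10 stretches of these 8 members. PU.1 matches were also in stretches of Clec4a1, Clec4a3, Clec7a and Clec12a, and a TATA match was in that of Clec4a2. Clec4a1 held PU.1 matches at -217 to -212 and -187 to -182, and Clec12a at -61 to -56 and -47 to -42. None of these genes passed on either scale. A match is a description of letters and no measure of binding.

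Clec7a, also called Dectin-1, binds beta-glucans of fungal walls and carries an activation motif in its own tail. Its level was 326, 334 and 351 FPKM in control and 314, 282 and 320 FPKM in cartilage libraries. Every cartilage library was below every control, by little. The log2 change was -0.15 with a 95% interval of -0.32 to 0.03 (limma adjusted p = 0.601), and on estimated fragments it was -0.19 (SE 0.07, limma adjusted p = 0.191). Unnamed transcripts held 61.6 FPKM in cartilage replicate 2 and 65.9 FPKM in cartilage replicate 3, and without them the log2 change was -0.38 (limma adjusted p = 0.702). Of its named transcripts, NM_020008 was listed at 0 in 4 of 6 libraries, so no split between its transcripts is given.

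Clec5a, also called MDL-1, binds flaviviruses and signals with the products of Tyrobp and Hcst. It lies apart from the other 8 genes on chromosome 6, at 40574898 to 40585805 on the minus strand. It was the lowest of the 9 genes, at 12.9, 11.2 and 14.02 FPKM in control and 23.2, 22.0 and 22.5 FPKM in cartilage libraries. The groups did not overlap, and the 3 cartilage libraries lay close together. The log2 change was 0.83 (SE 0.17, 95% interval 0.44 to 1.22), a fold change of 1.78, and did not pass on FPKM (limma adjusted p = 0.123). On estimated fragments it rose by 0.81 (SE 0.18, limma adjusted p = 0.0043) and passed without each library in turn, with an adjusted p between 0.00597 and 0.0412. Its named transcripts alone gave a limma adjusted p of 0.186 on estimated fragments, with the same log2 change, since no unnamed transcript was listed at the locus and the fit across the other genes differed. These values rested on 104 estimated fragments in control and 176 in cartilage libraries, a ratio of 1.77 with a 95% counting interval of 1.38 to 2.28 (Clopper-Pearson, counting error only). Such an interval leaves out the spread between libraries. Those of Clec4d, Clec4a1, Clec4a2, Clec7a and Clec12a, which passed on neither scale, did not include equal rates either.

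Clec12a, also called MICL, carries an inhibitory motif and binds uric acid crystals. Its level was 79.9, 78.3 and 67.4 FPKM in control and 93.2, 150 and 84.8 FPKM in cartilage libraries. All cartilage libraries were above all controls, with cartilage replicate 2 far above the other two. The log2 change was 0.50 (SE 0.21, limma adjusted p = 0.526). In cartilage replicate 2 an unnamed transcript of 812 bp held 73.7 FPKM but 22.4% of the fragments of the locus, and in cartilage replicate 3 another held 14.3 FPKM. The named transcript alone stood at 93.2, 76.5 and 70.4 FPKM in the cartilage libraries, which overlapped the controls, with a log2 change of 0.08 (limma adjusted p = 0.862). Per 1000000 fragments the controls held 161, 157 and 135 and the cartilage libraries 187, 198 and 170, a log2 change of 0.29 (SE 0.11, limma adjusted p = 0.251).

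Clec4a2, or DCIR, carries an inhibitory motif. Its level was 76.7, 55.7 and 62.9 FPKM in control and 78.5, 83.8 and 77.7 FPKM in cartilage libraries. The groups lay apart by less than 1 FPKM at their nearest libraries, control replicate 1 and cartilage replicate 3. The log2 change was 0.31 with a 95% interval of -0.01 to 0.63 (limma adjusted p = 0.553). Of its stretches of 100 bases in the GENCODE M21 transcripts, 2.14% were also in Clec4a4, while none was shared with another gene in the other 8 members. Most of the length of Clec4a2 thus had no exact match in Clec4a4. Stretches that match but for a few bases were not counted. Unnamed transcripts were listed at the locus in 4 of the 6 libraries, in both groups.

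Clec4a1 and Clec4a3 are relatives of Clec4a2 at the other end of the same stretch of chromosome 6. Clec4a1 stood at 183, 162 and 157 FPKM in control and 209, 191 and 236 FPKM in cartilage libraries. The groups did not overlap, with a log2 change of 0.34 (SE 0.10, unadjusted p = 0.0118, limma adjusted p = 0.335). In cartilage replicate 3 an unnamed transcript held 73.9 FPKM, and the named transcript alone, at 162 FPKM there, overlapped the controls. Clec4a3 stood at 131, 104 and 135 FPKM in control and 115, 126 and 127 FPKM in cartilage libraries. The groups overlapped, with a log2 change of 0.00 and a 95% interval of -0.27 to 0.28.

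**Figure D2:**
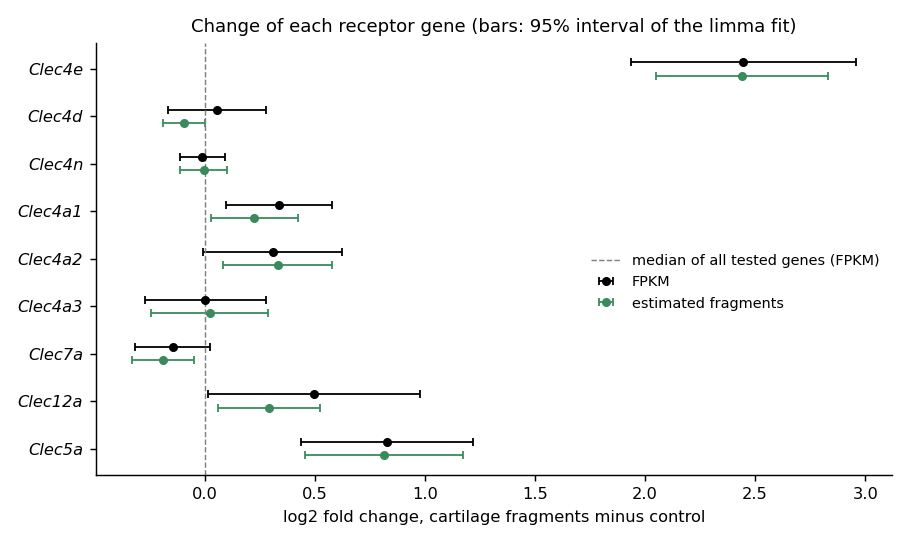
Log2 fold change of each receptor gene, cartilage fragments minus control, on FPKM (black) and on estimated fragments (green), with bars for the 95% interval of the limma fit and a dashed line at the median of all tested genes. Clec4e stood at 2.45 and 2.44 on the 2 scales and Clec5a at 0.83 and 0.81, while Clec4d lay on either side of the line at 0.06 and -0.09.

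**Figure D3:**
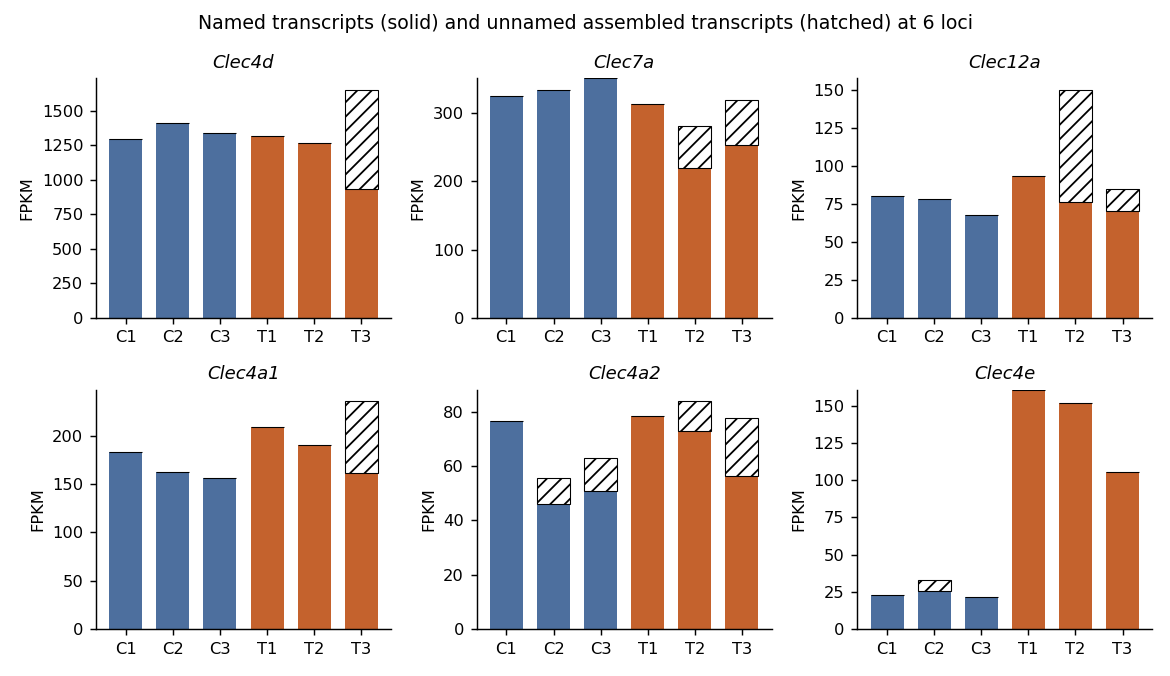
FPKM of the transcripts that carry the gene's name (solid) and of unnamed assembled transcripts at the same locus (hatched) in control replicates C1 to C3 and cartilage replicates T1 to T3, at 6 of the 9 loci. The hatched part reached 719 FPKM for Clec4d in T3 and 73.7 FPKM for Clec12a in T2, and was 7.32 FPKM for Clec4e in C2.

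Unnamed transcripts were listed at 7 of the 9 loci. At Clec4e the only one was in control replicate 2, with 7.32 FPKM, and without it the log2 change was 2.57 (limma adjusted p = 0.0164). At Clec4a3 an unnamed transcript held 20.5 FPKM in cartilage replicate 2. Why they were assembled in some libraries was not tested. The order of the 9 genes by mean FPKM was Clec4d, Clec4n, Clec7a, Clec4a1, Clec4a3, Clec12a, Clec4a2, Clec4e and Clec5a in the controls. Neighbours in that order did not overlap, save Clec12a and Clec4a2. In the cartilage libraries Clec4e stood in place 5, after Clec4a1, and overlapped Clec4a3, which in turn overlapped Clec12a.

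The log2 ratio of Clec4e to each of the other 8 members was higher in every cartilage library than in every control, by 1.62 against Clec5a and by 1.95 to 2.59 against the other 7. Each of the 8 exact permutation tests, two-sided, gave p = 0.1 and an adjusted p of 0.1, the smallest that 3 against 3 allows. All 8 ratios share the values of Clec4e, whose own groups did not overlap, so they are not 8 separate results. Clec4e took 1.53% ± 0.35 (SD, n = 3) of the estimated fragments of the 9 genes in control and 7.92% ± 1.5 (SD, n = 3) in cartilage libraries. Clec4d took 39.8% ± 1.33 and 35.2% ± 0.35, and Clec7a 17.1% ± 0.78 and 14.2% ± 1.24 (SD, n = 3 each). Shares are parts of a whole, so a rise of Clec4e by itself lowers those of the other genes. The 9 genes together held 3820 ± 36.6 fragments per 1000000 in control and 4052 ± 134 in cartilage libraries (SD, n = 3 each), and the 3 cartilage values were above the 3 controls. Clec4e alone held 58.5 ± 14.2 and 322 ± 68.2 per 1000000 (SD, n = 3 each), a larger rise than that of the 9 genes together.

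**Figure D4:**
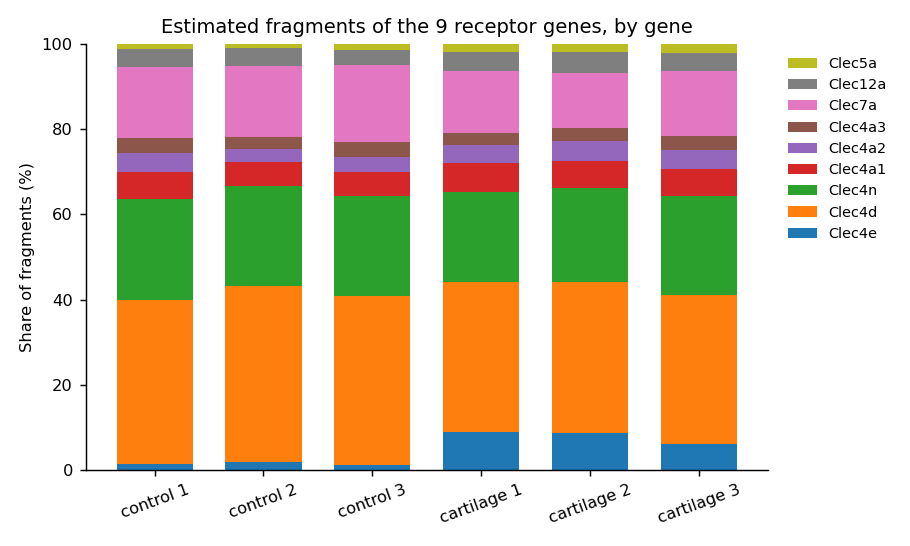
Share in percent of the estimated fragments of the 9 receptor genes taken by each gene in each library, stacked to 100. The Clec4e part at the base was 1.28% to 1.94% in control and 6.19% to 8.83% in cartilage libraries.

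Within the 368 kb from Clec4a1 to Clec4e the files list 9 genes, of which 7 were tested and 1, Clec4e, passed on FPKM. The 3 that are no members were near the floor: Clec4a4 stood at 4.25 ± 1.09 FPKM in control and 5.50 ± 1.23 FPKM in cartilage libraries (SD, n = 3 each), and Clec4b1 and Clec4b2 were listed at 0 in every cartilage library. Clec12a and Clec7a lie 96288 bp apart further along the chromosome.

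Among 30 other C-type lectin receptor genes, 9 were listed at 0 in every library and 11 were tested. None passed on FPKM with limma and the median log2 change was -0.04. An unadjusted p under 0.05 was reached by 2 of them, beside 9.19% of all genes tested (955 of 10393). On estimated fragments 1 passed, Cd302, a lectin receptor of macrophages with a role in adhesion and uptake. Cd302 stood at 102, 125 and 102 FPKM in control and 161, 152 and 139 FPKM in cartilage libraries. Its groups did not overlap, with a log2 change of 0.46 on either scale and a limma adjusted p of 0.198 on FPKM and 0.0320 on estimated fragments. Mrc1, the mannose receptor, was next in level at 80.7 ± 8.81 and 74.2 ± 3.74 FPKM (SD, n = 3 each, limma adjusted p = 0.804).

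None of the 3 adaptor chains passed on either scale with limma, and 2 had an unadjusted p under 0.05 on FPKM, beside 9.19% of all genes. Fcer1g, the partner of Clec4e and Clec4n, stood at 1046, 975.4 and 1050 FPKM in control and 1168, 1234 and 1042 FPKM in cartilage libraries (log2 change 0.16, limma adjusted p = 0.535). Tyrobp stood at 3596, 4161 and 3888 FPKM in control and 3814, 4047 and 4100 FPKM in cartilage libraries (log2 change 0.04, limma adjusted p = 0.855). The groups of both overlapped. Hcst, the chain named DAP10, was at 43.8, 28.9 and 17.1 FPKM in control and 81.2, 54.2 and 80.1 FPKM in cartilage libraries. Its groups did not overlap, but the log2 change of 1.34 (SE 0.33) rested on 16.1 and 36.4 estimated fragments in all and did not pass (limma adjusted p = 0.204).

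Of the 23 genes of Syk and Card9 signalling all were tested, none passed on either scale with limma and the median log2 change was 0.03. An unadjusted p under 0.05 on FPKM was reached by 1 of them, beside 9.19% of all genes. Syk stood at 72.9, 69.3 and 65.8 FPKM in control and 83.9, 79.1 and 69.8 FPKM in cartilage libraries, and Card9 at 37.3, 50.4 and 41.9 and 29.6, 39.9 and 58.5 FPKM. Both overlapped between groups, with a limma adjusted p of 0.720 for Syk and 0.964 for Card9. On FPKM of all transcripts the largest changes among the 23 were those of Malt1, the paracaspase that acts with Card9, and Vav2, a guanine exchange factor. Malt1 stood at 5.36 ± 0.61 and 8.49 ± 1.14 FPKM (SD, n = 3 each, limma adjusted p = 0.423) and Vav2 at 11.7 ± 5.13 and 7.76 ± 2.21 FPKM (SD, n = 3 each, limma adjusted p = 0.690), and neither passed. The order among the 23 changed when unnamed assembled transcripts were left out. With named transcripts only, the log2 change of Vav2 went from -0.54 to 2.10 and that of Card9 from -0.06 to 2.53, those of Tec and Traf6 were 2.71 and -2.53, and limma passed none of these 4 genes.

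Of 10 inhibitory phosphatases and brakes none passed on FPKM with limma and 2 had an unadjusted p under 0.05 (9.19% of all genes), with a median log2 change of -0.10. Ptpn6, the phosphatase SHP-1 that binds inhibitory motifs, stood at 118, 126 and 111 FPKM in control and 153, 159 and 147 FPKM in cartilage libraries. Its groups did not overlap, and the log2 change of 0.37 (SE 0.09) did not pass (limma adjusted p = 0.186). Cbl, a ubiquitin ligase, passed on estimated fragments (log2 change 0.73, limma adjusted p = 0.00839), but its FPKM overlapped and its named transcripts alone gave a log2 change of -6.74 (limma adjusted p = 0.134), so its direction depended on the unnamed transcripts.

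Of 9 transcription factors tied to myeloid lectin genes none passed on FPKM with limma and 3 had an unadjusted p under 0.05 (9.19% of all genes), with a median log2 change of 0.05, and Nfkb2 rose on estimated fragments (log2 change 0.60, SE 0.13, limma adjusted p = 0.00603). Nfkb2, the NF-κB subunit of the noncanonical pathway, stood at 33.2, 30.8 and 30.1 FPKM in control and 49.1, 53.1 and 45.7 FPKM in cartilage libraries. Spi1, which encodes PU.1, stood at 308 ± 15.1 and 306 ± 7.61 FPKM (SD, n = 3 each, limma adjusted p = 0.984). Cebpb, which encodes C/EBPβ, stood at 87.9 ± 4.47 and 82.8 ± 11.3 FPKM (SD, n = 3 each, limma adjusted p = 0.850). Cebpa, of the same family, stood at 197, 199 and 217 FPKM in control and 179, 158 and 184 FPKM in cartilage libraries. Its log2 change was -0.23 on either scale, with a limma adjusted p of 0.482 on FPKM and 0.1135 on estimated fragments. Relb had a log2 change of 0.40 on FPKM (limma adjusted p = 0.5255). The groups of Cebpa and Relb did not overlap. With Nfkb2, they were the 3 genes with an unadjusted p under 0.05.

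Of 18 cytokines and enzymes known to be induced through Syk and Card9, 10 were tested and 4 were listed at 0 in every library. With limma 1 passed on FPKM, beside 0.366% of all tested genes, and 3 on estimated fragments, beside 2.56%. An unadjusted p under 0.05 on FPKM was reached by 4, beside 9.19% of all genes. Groups did not overlap in 5 genes that were higher and 1 that was lower, beside 9.04% and 6.89% of all genes. Il1b, the cytokine interleukin-1β, rose from 2.32, 2.39 and 2.42 FPKM to 14.4, 15.0 and 15.5 FPKM (log2 change 2.61, SE 0.22, limma adjusted p = 0.00283), on 6.05 estimated fragments in the controls together and 36.4 in the cartilage libraries. Tnf, the cytokine tumour necrosis factor, stood at 12.6, 13.0 and 14.1 FPKM in control and 64.0, 52.3 and 27.0 FPKM in cartilage libraries, and Cxcl2, a chemokine for neutrophils, at 1.48, 6.12 and 6.18 and 27.6, 28.8 and 23.9 FPKM. Neither Tnf (limma adjusted p = 0.0818) nor Cxcl2 (limma adjusted p = 0.102) passed on FPKM, and both passed on estimated fragments (limma adjusted p = 3.346e-05 and 0.000398). Ptgs2 was the gene that was lower, at 4.84 ± 0.39 and 3.66 ± 0.53 FPKM (SD, n = 3 each, limma adjusted p = 0.706). Ccl3, Egr2 and Il10 overlapped between groups, with log2 changes of 0.18, 0.16 and 0.07. Il1a, at 0.757 ± 0.77 FPKM in control (SD, n = 3), passed the filter through its cartilage libraries. Ccl2, at 0 in control replicate 2, had a log2 change of 2.76 against means of 2.19 and 7.80 FPKM. Ccl4, at 0 in control replicate 3, had one of 2.82 against means of 7.88 and 17.2 FPKM, and its groups overlapped. With such genes in it, the median log2 change of the tested genes, 2.18, is no measure of the list.

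**Figure D5:**
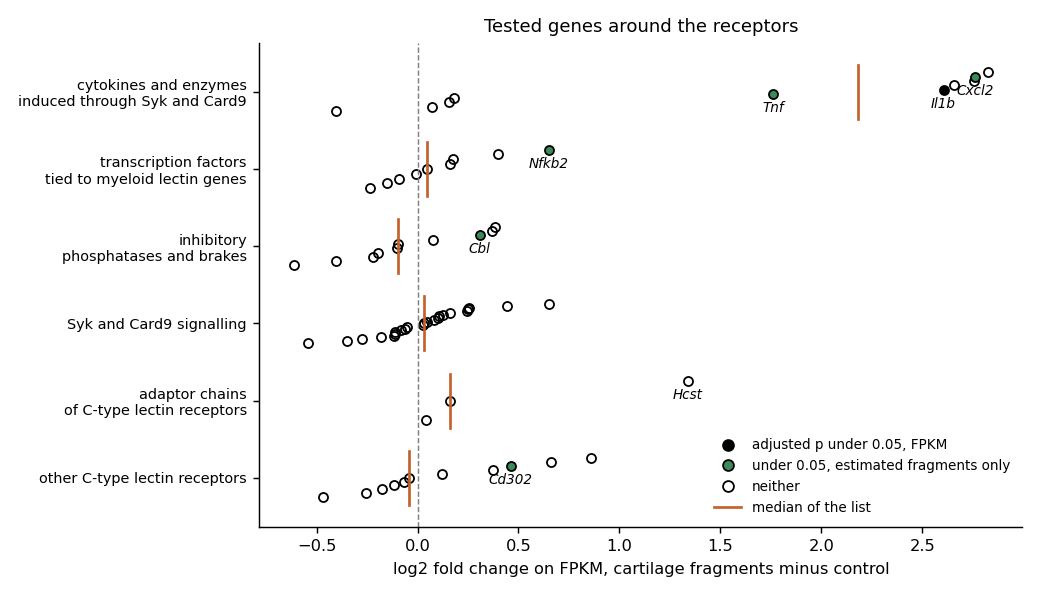
Log2 fold change on FPKM, cartilage fragments minus control, of every tested gene in the 6 lists around the receptors, with an orange line at the median of each list and a dashed line at the median of all tested genes. Il1b is filled black as past the threshold on FPKM, and Cd302, Cbl, Nfkb2, Tnf and Cxcl2 are filled green as past it on estimated fragments alone.

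Among the 5523 other tested genes whose mean reached 10 FPKM, the 5 whose log2 FPKM followed that of Clec4e most closely over the 6 libraries were Fpr2, Cd14, Mocs1, Pilra and Saa3, with Pearson's r from 0.998 to 0.990. These libraries share the split between groups, and 78 genes had an r over 0.95, so the likeness is a description. Fpr2, a formyl peptide receptor, stood at 16.7, 20.9 and 14.9 FPKM in control and 77.1, 77.0 and 50.2 FPKM in cartilage libraries. As with Clec4e, control replicate 2 was the highest control and cartilage replicate 3 the lowest of its group. Saa3, an acute phase protein, stood at 433, 454 and 349 FPKM in control and 3653, 3796 and 2935 FPKM in cartilage libraries, and Cd14, the co-receptor for lipopolysaccharide, at 118 ± 5.28 and 183 ± 14.8 FPKM (SD, n = 3 each). Pilra stood at 4.93 ± 0.67 and 23.4 ± 5.43 FPKM, and Mocs1 at 24.3 ± 2.11 and 36.1 ± 0.88 FPKM (SD, n = 3 each).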

How the data were processed

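RNA was sequenced as paired-end reads of 100 bp from 6 libraries, 3 of each group. According to the submitters' processing notes the authors used TopHat, Bowtie, Cufflinks and Cuffdiff with mm10, and versions are not given in the sources used here. The deposited FPKM and coverage are the Cufflinks values per transcript, reference and assembled. FPKM were summed over a symbol's transcripts, unnamed assembled ones included where their gene identifier held that symbol alone. Fragments were estimated from the deposited coverage signal, the effective length and 100 bases per fragment, and 94.8% to 95.6% of values up to 8 lay within 0.1 of a whole number. They came to 699192 to 776322 per library, a small part of what the read numbers in the methods would give, and the reason was not tested. Positions are those of mm10, and GENCODE M21 and RefSeq sequences are of the same build.

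Tested genes had a mean of 1 FPKM or more over the 6 libraries. They were compared on log2(FPKM + 0.1), or log2(fragments per 1000000 + 1), with limma 3.58.1 in R 4.3.3 (eBayes with trend and robust), two-sided. The added constant shrinks the fold changes of low genes, but on FPKM a library at 0 can inflate them. Il1a, at 0 in control replicate 2, had a fold change of 6.31 against means of 0.757 FPKM in control and 3.38 FPKM in cartilage libraries. The procedure was also run on simulated fragments per gene, which did not model the unnamed assembled transcripts. Python 3.11.15 with pandas 2.3.3, scipy 1.17.1 and matplotlib 3.10.9 served for the rest. Named genes were the members, 6 fixed pathway genes, for each list those past the threshold on either scale, or else the 2 with the largest change, and the 5 most like Clec4e. Mrc1, Spi1, Cebpa, Cebpb, Relb, Il1a, Il10, Ccl2, Ccl3, Ccl4, Egr2, Ptgs2 and the genes between the members were chosen after their values were seen. A gene of the lists is not reported here. Members and lists were chosen with earlier results of these data known. Libraries of a group differed by 1.44 to 1.60 in mean chi-square per gene and libraries of different groups by 2.00 to 2.50, so none was counted as a duplicate. Alternatives changed the pseudocount, filter, scaling, transcripts, moderation and replicate block, or left out each library. The fragment fits without a library and on named transcripts were added after seeing the data.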

Additional observations from a re-analysis of the deposited data

Results flagged for a closer look

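In 8 cases, all in cartilage replicates 2 and 3, unnamed assembled transcripts at a member locus stood above those of every control library. The comparison is with the unnamed transcripts of the controls, not with the whole level of the gene. At Clec4d the value was 719 FPKM in cartilage replicate 3. At Clec12a it was 73.7 FPKM in cartilage replicate 2 and 14.3 FPKM in cartilage replicate 3, and at Clec7a 61.6 and 65.9 FPKM in the same libraries. In cartilage replicate 3 Clec4a1 had 73.9 FPKM and Clec4a2 21.4 FPKM of such transcripts, and in cartilage replicate 2 Clec4a3 had 20.5 FPKM. Clec4a2 had 9.70 and 12.0 FPKM of them in control replicates 2 and 3. Their source was not tested.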

How the results depend on the processing

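The log2 change of Clec4e kept its direction in every alternative, between 2.33 and 2.65 with a library left out on either scale. It fell short of the threshold, at an unchanged 2.45, without the trend and robust moderation (limma adjusted p = 0.0676), where 18 genes and 0 members passed, and without cartilage replicate 1. On estimated fragments 266 genes, 2 members and 6 genes of the lists passed. With reference transcripts only 17 genes passed and 3 members did not overlap, and on estimated fragments of named transcripts 14 genes, 1 member and 0 genes of the lists passed and 3 members did not overlap. With a library left out, on FPKM or fragments, 8 to 227 genes, 0 to 2 members and 1 to 6 genes of the lists passed. The deviations of same-numbered libraries from their group means had correlations of -0.02, -0.0024 and 0.0099. With so few libraries at this depth, these values cannot decide whether replicate numbers paired the samples. The fit with the replicate block gave 18 genes with Clec4e among them (limma adjusted p = 0.0091) and changed no member's call. Of the members that passed in no fit, Clec4d turned to -0.084 under quantile normalization, -0.0925 on fragments and -0.22 with named transcripts on FPKM or on fragments, and lay between -0.12 and 0.13 with a library left out. Clec4a3 turned to -0.033 with equal totals, -0.00769 with size factors, -0.0392 under quantile normalization, -0.0824 with reference transcripts only and -0.0718 on their fragments, and lay between -0.11 and 0.0943 with a library left out. With a library left out Clec4n lay between -0.0258 and 0.00773. The cause of these turns was not tested. The ratios of Clec4e to the 8 members kept their direction in each alternative run for them. Depth limits most the genes with few estimated fragments, such as Il1b, Hcst and Cxcl2.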
